A study of Mus musculus with 4 samples.

Results

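The transcripts of the 7 mouse sirtuins, Sirt1 to Sirt7, and of 3 enzymes of NAD metabolism, Nampt, Nmnat2 and Parp1, were compared between the hippocampi of PND mice and control mice. These 10 genes were taken by symbol from a table of 29300 genes, and all 10 had a single row in it. PND stands for perioperative neurocognitive disorder. PND mice (n = 2) were C57BL/6 male mice, 7 to 8 months old, which received isoflurane anesthesia, tramadol and an open fracture of the tibia fixed with an intramedullary nail. Control mice (n = 2), labelled sham, were of the same strain, sex and age and received the anesthesia and the analgesic but no fracture. Both groups therefore shared anesthesia and analgesia, and the comparison addresses what the fracture added at day 1 post-surgery. The model is a limb injury in otherwise healthy animals, and no untreated mice were sequenced.

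Sirtuins are deacylases that consume NAD with every acyl group they remove from a protein, so that their activity is tied to the supply of this cofactor. Sirt1, Sirt6 and Sirt7 act mainly in the nucleus, Sirt2 mainly in the cytosol, and Sirt3, Sirt4 and Sirt5 in mitochondria. Nampt catalyses the rate-limiting step by which cells recover NAD from nicotinamide, Nmnat2 makes NAD from nicotinamide mononucleotide in the cytosol and is known as a survival factor of axons, and Parp1 spends NAD on poly(ADP-ribose) chains at breaks in DNA.

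In the hippocampus of PND mice, the Sirt1 transcript was 1.89-fold higher than in control mice, and Sirt1 was the sole gene of the 10 that met the criteria of a differentially expressed gene (DEG). Nampt was higher by a log2 fold change of 0.37 and Sirt6 was lower by a log2 fold change of -0.37. Both had an adjusted p-value under 0.05 without reaching the fold threshold of a DEG. Neither passed in a further fit that allowed for transcript length and GC content (Nampt -0.07, Sirt6 -0.02). The other 7 genes did not pass the test, with log2 fold changes between -0.26 (Sirt7) and 0.22 (Sirt4).

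Upstream sequences are shown for the 3 genes with an adjusted p-value under 0.05. They come from RefSeq promoters on GRCm38.p6, the assembly of which mm10 is the UCSC name. All 10 genes matched at least 1 RefSeq start, with 12 windows in all, and each window held the 250 bases before a start. The stretches printed for Sirt1 and Nampt lie outside annotated exons but inside the annotated genes. The 30 bases printed for Sirt6 lie inside an annotated exon of Sirt6. Sirt1 is shown because its window holds the E-box letters CACGTG at 2 places, with first bases 115 and 43 bases before the start (capitals). Nampt and Sirt6 are shown because each holds the NRF-1 motif (capitals), 10 letters of which 1 may be any base, with first bases 49 and 143 bases before the start.
Sirt1, chr10:63339051-63339285, minus strand: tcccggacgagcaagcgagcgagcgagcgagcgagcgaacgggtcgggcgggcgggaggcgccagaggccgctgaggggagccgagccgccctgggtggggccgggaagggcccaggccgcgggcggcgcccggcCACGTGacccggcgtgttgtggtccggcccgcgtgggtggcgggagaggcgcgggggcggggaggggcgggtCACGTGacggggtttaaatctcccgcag
Nampt, chr12:32820085-32820334, plus strand: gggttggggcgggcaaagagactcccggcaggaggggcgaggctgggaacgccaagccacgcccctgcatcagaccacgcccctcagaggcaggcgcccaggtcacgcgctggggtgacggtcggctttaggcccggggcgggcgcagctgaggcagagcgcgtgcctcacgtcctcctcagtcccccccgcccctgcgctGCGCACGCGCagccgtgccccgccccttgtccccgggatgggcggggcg
Sirt6, chr10:81627690-81627719, minus strand: catcaggaggGCGCATGCGCtctggaaaga

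E-boxes are read by basic helix-loop-helix factors such as Clock and Myc, and NRF-1 is a regulator of genes for mitochondrial proteins. Of 32851 RefSeq windows of the same length, searched on both strands, 6.02% held an E-box and 0.429% held 2 or more, while 3.74% held the NRF-1 motif. Parp1 was the other gene of the 10 with an E-box, whose first base lies 49 bases before its start. GC boxes (GGGCGG, the letters read by Sp1) were present in 32.7% of the windows, and 16.7% held 2 or more. They were found 6 times upstream of Sirt1, 5 times upstream of Nampt and 3 times each upstream of Sirt3 and Parp1. Sirt2, Sirt5, Sirt6 and Sirt7 had 1 each, and Sirt4 and Nmnat2 had none. No window of the 10 genes held the cAMP response element TGACGTCA, which occurs in 1.55% of all windows. These are matches of letters, and binding was not measured.

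Each library held between 15763432 and 18573386 counted reads and 24238 to 25324 detected genes. Levels are given as CPM, the count of a gene relative to the total of its library after TMM scaling. Of the 29300 genes, 17144 had enough counts to be tested by edgeR's quasi-likelihood test, and a gene counted as a DEG when its Benjamini-Hochberg adjusted p-value was under 0.05 and its fold change was 1.5 or more, or 0.67 or less. By these criteria 9.01% of the genes tested were DEGs, 6.75% higher and 2.25% lower in PND mice, and 26.0% had an adjusted p-value under 0.05 whatever the fold (13.1% higher, 12.8% lower). The direction of the DEGs moved with the scaling, from 1158 higher and 386 lower to 1377 higher and 224 lower when library totals were used without TMM. Since each group had 2 mice, edgeR drew each gene's own spread toward that of all genes before computing these p-values. Mitochondrially encoded mRNA was at 2.82% and 2.53% of counts in control mice and 4.45% and 4.49% in PND mice. Fold changes also moved with base composition. When genes were cut into eighths by the GC content of the transcript, the median log2 fold change went from 0.59 in the lowest to -0.34 in the highest eighth. For each member the median of its own eighth is therefore given, together with the fold change from a fit in which each library's dependence on transcript length and on GC content entered as an offset. In that fit 1.07% of 17120 genes were DEGs. The GC trend ran between the groups, so the offsets also take out any effect of the fracture that runs with GC content or length. Such an effect and a technical trend cannot be told apart here, and the cause of the trend was not tested.

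The 7 genes of the hippocampus marker list were all tested. Their summed level was 1130 and 1023 CPM in control mice and 1137 and 1015 CPM in PND mice. No other tissue was sequenced, so these levels do not test where the tissue came from. Within that list 2 markers were lower at an adjusted p-value under 0.05, Wfs1 (-0.70) and Fibcd1 (-0.64), both DEGs, and 2 were higher, Neurod6 (0.53) and Zbtb20 (0.44). With length and GC offsets these 4 markers did not pass (adjusted p = 0.11 for Wfs1, 0.065 for Fibcd1, 0.39 for Neurod6 and 0.35 for Zbtb20). Neuronal markers summed to between 6607 and 6972 CPM in the 4 mice, and microglial markers to between 246 and 256 CPM. These sums hide markers that moved in opposite directions. At an adjusted p-value under 0.05, 2 neuronal markers were higher and 2 were lower of 8, and 1 microglial marker was higher of 6. At that threshold 13.1% of all genes were higher and 12.8% lower. Endothelial markers summed to 197 and 206 CPM in control mice and 218 and 289 CPM in PND mice, with 2 of 5 higher, and astrocyte markers to 2340 and 2407 CPM against 2149 and 2072 CPM, with 2 of 6 higher and 2 lower. Of all the markers read, those that passed with the offsets were Map2 (0.49) and Flt1 (0.49), which were higher, and Snap25 (-0.56), which was lower. Choroid plexus markers differed between libraries of the same group, with 127 and 5399 CPM in control mice and 2031 and 3440 CPM in PND mice. In bulk tissue, fewer cells of a type and less RNA per cell cannot be told apart, and the part of these markers in the results below was not tested.

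Of the nuclear sirtuins, Sirt1 removes acetyl groups from histones and from transcription factors and coactivators. It had 9.98 and 11.0 CPM in the control mice and 19.5 and 20.1 CPM in the PND mice, from 172, 201, 311 and 340 counted reads. Both PND mice lay above both control mice, and the gap between the groups was larger than the difference within either group. The log2 fold change was 0.92 (SE 0.13, 95% confidence interval 0.62 to 1.22, adjusted p = 0.0057, edgeR). Sirt1 ranked 874th from the top of the 17144 genes tested by log2 fold change. The transcript of Sirt1 has a GC content of 44.0%, and the median log2 fold change of its GC eighth was 0.32. With length and GC offsets the log2 fold change of Sirt1 was 0.69 (SE 0.13, adjusted p = 0.048), which still met the criteria of a DEG. When the mean of the trend was removed as well, a setting added after seeing the data, it was 0.62 with an adjusted p-value of 0.061. Leaving out each mouse in turn gave values between 0.84 and 0.98 with adjusted p-values between 0.0074 and 0.015.

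Sirt6, which deacetylates histone H3 and takes part in DNA repair and telomere maintenance, went the other way. It had 30.2 and 28.7 CPM in the control mice and 23.1 and 22.5 CPM in the PND mice, and the groups did not overlap. The log2 fold change was -0.37 (SE 0.10, 95% confidence interval -0.60 to -0.14, adjusted p = 0.033). Sirt6 had the highest GC content of the 10 genes, 58.4%, and its value was close to the median of its eighth, -0.34. With length and GC offsets it was -0.02 (SE 0.10, adjusted p = 0.91). In the analyses that left out a mouse the size stayed at -0.41 to -0.34, but the adjusted p-values were 0.061 to 0.12. The call was lost likewise with DESeq2 (-0.39, adjusted p = 0.078) and without the filter on low counts (-0.38, adjusted p = 0.067).

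Sirt7, a nucleolar sirtuin that acts on ribosomal RNA transcription, was at 59.3 and 52.6 CPM in control mice and 48.3 and 45.3 CPM in PND mice. The groups did not overlap, but the log2 fold change of -0.26 (SE 0.09, 95% confidence interval -0.47 to -0.04) had an adjusted p-value of 0.082. Its eighth of GC content had a median of -0.25, and with the offsets Sirt7 was at 0.02 (adjusted p = 0.93). Exons of Sirt7 share 178 bases with Mafg and Mir6936 on the same strand, 3.46% of its exon length.

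**Figure D1:**
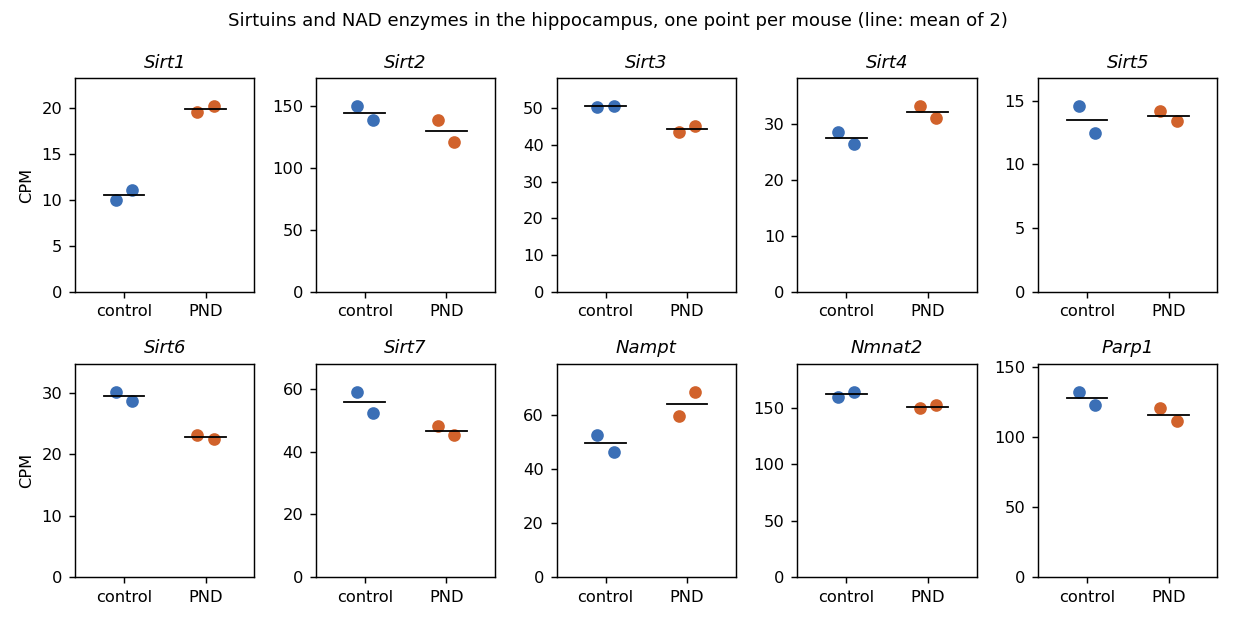
Level of each of the 10 genes in CPM (linear axis from 0, scaled for each gene) with a point for each mouse and a line at the mean of the 2 mice of a group. Sirt1 shows the widest relative gap, from 9.98 and 11.0 CPM in control mice to 19.5 and 20.1 CPM in PND mice, while the points of Sirt5 overlap.

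Sirt2 is the cytosolic sirtuin, a deacetylase of tubulin known to be abundant in oligodendrocytes and myelin. It was at 150.1 and 139 CPM in control mice and 139 and 121 CPM in PND mice, so that the groups nearly met. The log2 fold change was -0.16 (SE 0.09, 95% confidence interval -0.36 to 0.05, adjusted p = 0.23), close to the median of its GC eighth, -0.17, and with the offsets it was 0.08 (adjusted p = 0.63). The value was -0.27 without PND mouse 1 (adjusted p = 0.061) and -0.06 without PND mouse 2 (adjusted p = 0.72). The 10 oligodendrocyte markers summed to 6590 and 5684 CPM in the control mice and 6518 and 4241 CPM in the PND mice, and the lowest adjusted p-value among them was 0.178. The second PND mouse was thus the lowest for Sirt2 and for the sum of these markers alike.

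The mitochondrial sirtuins did not pass edgeR's test after adjustment, and Sirt3 alone had an unadjusted p-value under 0.05 (0.045). Sirt3, the main deacetylase of the mitochondrial matrix, had 50.4 and 50.6 CPM in control mice and 43.5 and 45.3 CPM in PND mice. Both PND mice were below both control mice, with a log2 fold change of -0.19 (SE 0.08, 95% confidence interval -0.37 to -0.01, adjusted p = 0.12). The median of its GC eighth was 0.18, on the other side of 0, and with the offsets Sirt3 was at -0.28 (SE 0.07, adjusted p = 0.090). Exons of Psmd13 and Ric8a on the opposite strand overlap 12.7% of the exon length of Sirt3, and since no source states whether counting used strand, reads of these genes cannot be told apart there.

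Sirt4, a mitochondrial sirtuin with ADP-ribosyltransferase and lipoamidase activity, was at 28.6 and 26.5 CPM in control mice and 33.2 and 31.1 CPM in PND mice. The PND mice were higher without overlap, and the log2 fold change was 0.22 (SE 0.10, 95% confidence interval -0.01 to 0.45, adjusted p = 0.14). Its GC eighth had a median of -0.17, on the other side of 0, and the value with the offsets was 0.44 (SE 0.10, adjusted p = 0.066). Sirt5, which removes succinyl and malonyl groups, was at 14.6 and 12.5 CPM in control mice and 14.2 and 13.4 CPM in PND mice. The PND mice lay inside the range of the control mice, and the interval of its log2 fold change ran from -0.31 to 0.36. The estimate was 0.03, beside a median of 0.05 in its GC eighth, and -0.01 with the offsets (adjusted p = 0.96). Of the 75 nt windows of the Sirt5 transcripts, 11.7% occur in transcripts of other genes, which makes its counts less certain. For each other member this share is at most 0.865%, a measure that leaves out opposite-strand overlaps such as that of Sirt3.

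Nampt had 52.7 and 46.1 CPM in the control mice and 59.4 and 68.6 CPM in the PND mice. The groups did not overlap, and the log2 fold change of 0.37 (SE 0.11, 95% confidence interval 0.12 to 0.63) had an adjusted p-value of 0.044. Nampt has the lowest GC content of the 10 genes, 40.3%, and the median of its eighth, 0.59, was above its own value. With the offsets the log2 fold change was -0.07 (SE 0.09, adjusted p = 0.67). The call was also lost without control mouse 2 (0.28, adjusted p = 0.17) and without PND mouse 2 (0.27, adjusted p = 0.14), and without the filter on low counts (0.36, adjusted p = 0.12). Nmnat2 was at 159.7 and 165 CPM in control mice and 149.99 and 152 CPM in PND mice, with a log2 fold change of -0.10 (SE 0.06, 95% confidence interval -0.24 to 0.04, adjusted p = 0.25). Parp1 was at 132 and 123 CPM in control mice and 121 and 111 CPM in PND mice, with a log2 fold change of -0.14 (SE 0.07, 95% confidence interval -0.32 to 0.04, adjusted p = 0.22). For both enzymes the PND mice were below the control mice without overlap. Their GC eighths had medians of -0.07 for Nmnat2 and -0.17 for Parp1, and with the offsets the values were -0.02 (adjusted p = 0.83) and 0.05 (adjusted p = 0.78). Parp1 was at -0.21 without PND mouse 1 and at -0.07 without PND mouse 2. Without the offsets, the intervals exclude a fall past the 0.67-fold threshold of a DEG.

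**Figure D2:**
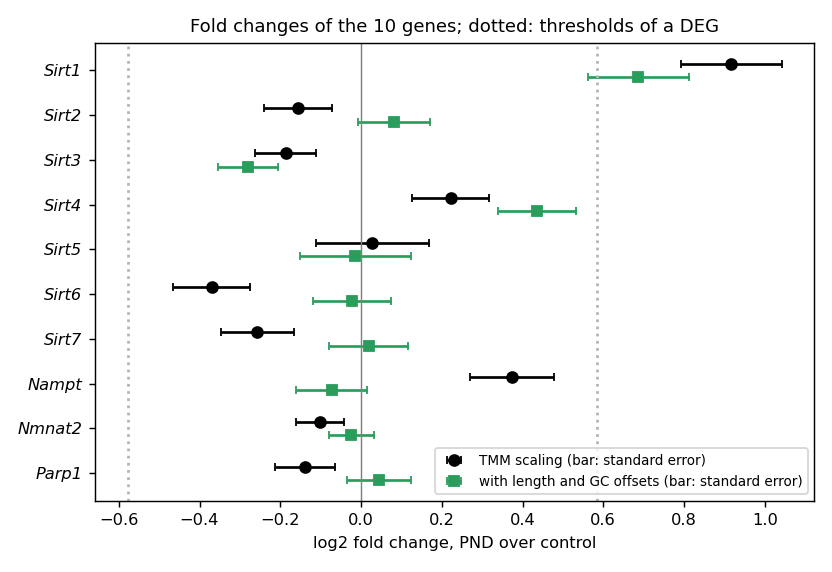
Log2 fold change of PND over control mice for each gene, after TMM scaling (black circles) and with length and GC offsets (green squares), with bars for the standard error and dotted lines at the fold thresholds of a DEG. Sirt1 lies beyond the upper threshold in both (0.92 and 0.69), whereas Sirt6 moves from -0.37 to -0.02 and Nampt from 0.37 to -0.07.

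As a group, 1 of the 10 genes was a DEG and 3 had an adjusted p-value under 0.05, against 9.01% and 26.0% of all genes tested, so the count of called members was near the background. The CPM of the groups did not overlap for 9 of the 10 (3 higher and 6 lower in PND mice), where 65.5% of all genes did not overlap (33.2% higher, 32.2% lower). The median log2 fold change was -0.12 over the 10 genes and -0.16 over the 7 sirtuins, beside 0.01 over all genes tested. Without PND mouse 2 the first 2 were -0.06 and -0.06, and with library totals alone the median of the 10 genes was -0.07. With length and GC offsets these medians were 0.00, 0.02 and 0.04.

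**Figure D3:**
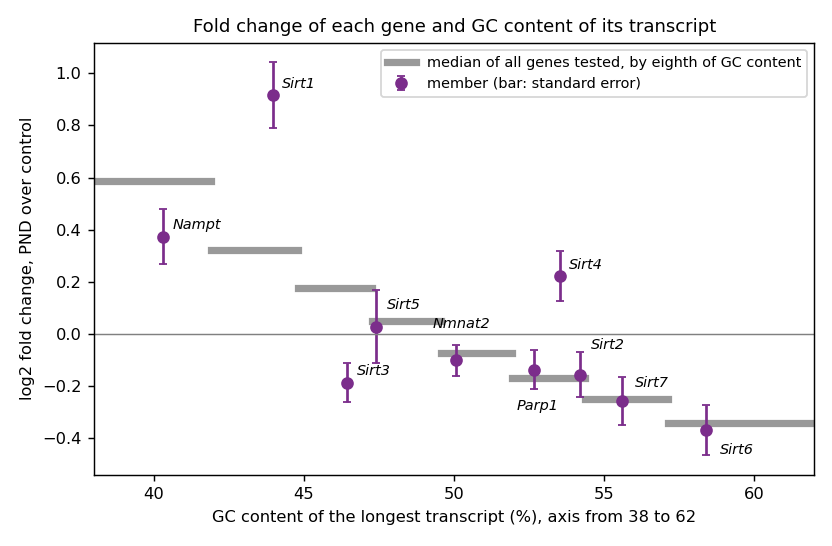
Log2 fold change of PND over control mice for each member (circles, bars for the standard error) against the GC content of its longest annotated transcript in percent, with grey bars at the median of all genes tested in each eighth of GC content. The widest gaps from the grey bars are those of Sirt1 (0.92 against 0.32) and Sirt4 (0.22 against -0.17), which lie above, and Sirt3 (-0.19 against 0.18), which lies below.

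Levels were compared between genes after division by the length of the merged exons in kb. In control mice the order was led by Sirt2 (28.7 ± 1.52 CPM per kb, SD, n = 2), Nmnat2 (28.1 ± 0.615) and Parp1 (24.1 ± 1.32). Sirt4 (11.5 ± 0.631), Sirt7 (10.9 ± 0.920), Sirt6 (10.6 ± 0.400), Nampt (9.77 ± 0.914) and Sirt3 (8.45 ± 0.0124) followed, and Sirt5 (2.22 ± 0.243) and Sirt1 (1.97 ± 0.134) were last. Of neighbours in this order, Sirt2 and Nmnat2, Sirt4 and Sirt7, Sirt7 and Sirt6, Sirt6 and Nampt, and Sirt5 and Sirt1 overlapped between mice. In PND mice Sirt1 was at 3.72 ± 0.0855 CPM per kb and Sirt5 at 2.26 ± 0.0906, so that Sirt1 ranked above Sirt5, and Nampt at 12.7 ± 1.28 was at rank 5 instead of rank 7. The order depends on the length chosen. Per kb of the longest transcript, 6 of the 10 genes kept their rank in control mice, and Sirt1 was last in both groups.

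Shares within the sirtuin family do not depend on library scaling. Sirt1 made up 2.44% and 2.87% of the summed CPM per kb of the 7 sirtuins in control mice, and 5.06% and 5.60% in PND mice. The share of Sirt4 was 15.5% and 15.4% in control mice and 19.1% and 19.2% in PND mice, and that of Sirt6 was 14.1% and 14.3% against 11.5% and 11.96%. Sirt2 held the largest share in all 4 mice, from 35.7% to 38.8%. The shares do depend on the length chosen. Per kb of the longest transcript, a choice added after seeing the data, Sirt1 made up 1.55% and 1.84% in control mice against 3.27% and 3.65% in PND mice, and Sirt2 from 46.0% to 48.9%. Counted directly, there were 0.330 and 0.384 Sirt1 reads for each Sirt6 read in control mice and 0.843 and 0.897 in PND mice. For each Parp1 read there were 0.397 and 0.376 Nampt reads in control mice and 0.492 and 0.616 in PND mice. These ratios share their numerators with the fold changes above and are not separate evidence. They also carry the GC contents of both genes.

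**Figure D4:**
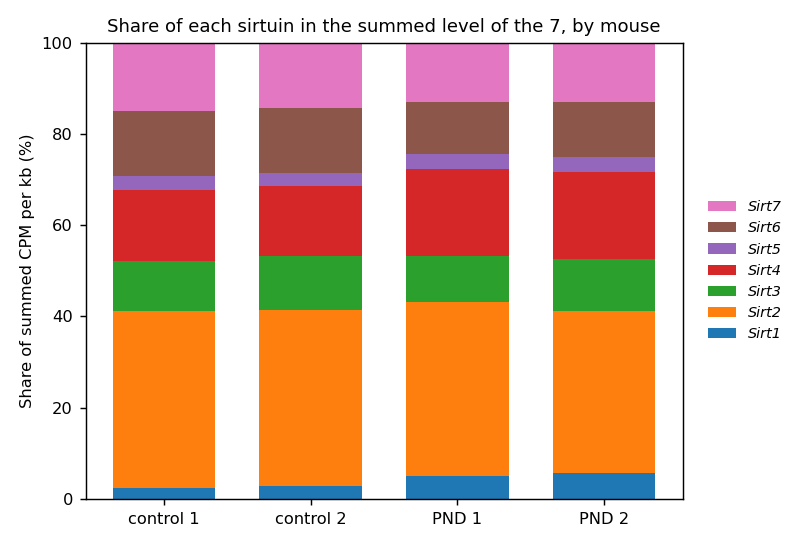
Share of each sirtuin in the summed CPM per kb of the 7 sirtuins (stacked bars, percent), with a bar for each mouse. The segment of Sirt1 grows from 2.44% and 2.87% in control mice to 5.06% and 5.60% in PND mice, and that of Sirt2 stays the largest in every mouse.

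A further 87 genes of NAD metabolism and of the sirtuin axis were read from the same fit, 78 of which had enough counts to be tested. Of the 78, 4 were higher DEGs and 2 were lower DEGs, against 6.75% and 2.25% of all genes, and 9 were higher and 15 lower at an adjusted p-value under 0.05 alone, against 13.1% and 12.8% of all genes. Their median log2 fold change was 0.03. With length and GC offsets, 1 of the 78 was a DEG and 6 had an adjusted p-value under 0.05, against 1.07% and 2.82% of all genes in that fit. The 9 genes not tested had between 0 and 13 counts in a mouse, among them Nnt, the proton-pumping transhydrogenase of the inner mitochondrial membrane, with 10, 4, 4 and 6 counts. Nnt is known to carry a deletion in the C57BL/6J substrain, and the labels give the strain as C57BL/6.

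Of 19 genes of NAD synthesis 12 were tested, and 1 was a DEG, beside 9.01% of all genes. Nmrk1, the kinase that turns nicotinamide riboside into nicotinamide mononucleotide, had 6.91 and 6.78 CPM in control mice and 9.91 and 11.1 CPM in PND mice (log2 fold change 0.62, SE 0.16, adjusted p = 0.034). Nadk2, the mitochondrial NAD kinase, passed the test alone, from 37.9 ± 2.83 to 47.2 ± 0.0914 CPM (log2 fold change 0.32, adjusted p = 0.041). Neither passed with the offsets (adjusted p = 0.24 for Nmrk1 and 0.72 for Nadk2). The call for Nmrk1 was also lost without control mouse 1, control mouse 2 or PND mouse 2 (adjusted p from 0.093 to 0.13), and that for Nadk2 on leaving out any mouse (0.058 to 0.18). The other routes to NAD did not pass in either direction. The log2 fold changes were 0.03 for Nmnat1 of the nucleus, -0.12 for Nmnat3 of mitochondria, 0.09 for Naprt, which uses nicotinic acid, -0.14 for the NAD synthetase Nadsyn1 and -0.12 for the cytosolic kinase Nadk. Their adjusted p-values ran from 0.29 (Nadk) to 0.93 (Nmnat1).

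Of 22 other NAD consumers and enzymes of ADP-ribose 21 were tested. They held 1 higher and 1 lower DEG, beside 6.75% and 2.25% of all genes. At an adjusted p-value under 0.05, 2 were higher and 3 were lower, beside 13.1% and 12.8% of all genes. Tiparp, a mono-ADP-ribosyltransferase induced by the aryl hydrocarbon receptor, had 10.9 and 10.1 CPM in control mice and 18.1 and 15.4 CPM in PND mice (log2 fold change 0.68, SE 0.14, adjusted p = 0.019). Adprhl2, the hydrolase that removes ADP-ribose from serine, had 31.3 and 34.0 CPM in control mice and 21.3 and 20.7 CPM in PND mice (log2 fold change -0.63, SE 0.10, adjusted p = 0.0071). The groups did not overlap for either gene. Adprhl2 fell just short of the fold threshold without control mouse 2 (-0.58, adjusted p = 0.030). Sarm1, the NAD hydrolase that drives axon degeneration, was lower without reaching the fold threshold (52.3 ± 4.82 against 41.4 ± 0.151 CPM, log2 fold change -0.34, adjusted p = 0.039). Cd38, an NAD hydrolase of the cell surface, was at 5.48 ± 0.787 CPM in control mice and 8.56 ± 1.29 CPM in PND mice, and its log2 fold change of 0.64 did not pass (SE 0.21, adjusted p = 0.064). Parp2, which like Parp1 responds to DNA breaks, was at 0.20 (adjusted p = 0.34). With the offsets Tiparp, Adprhl2 and Sarm1 had adjusted p-values of 0.39, 0.13 and 0.93, and 2 other genes of the list, Parp6 and Parp8, named after their values were seen, were lower at -0.51 and -0.53 (adjusted p = 0.032 and 0.031). Without the offsets these 2 genes were at -0.09 and -0.14. Leaving out control mouse 2 or PND mouse 1 ended the call for Tiparp (adjusted p = 0.075 and 0.064), and leaving out any mouse but control mouse 2 ended that for Sarm1 (0.069 to 0.16).

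Of the 10 genes of transport and breakdown, all tested, 1 was higher at an adjusted p-value under 0.05, beside 13.1% of all genes. It did not reach the fold threshold of a DEG. Slc25a51, the mitochondrial importer of NAD, was at 102 and 99.7 CPM in control mice and 102 and 99.96 CPM in PND mice, with a log2 fold change of 0.00 (SE 0.06). All 10 genes of the NADH shuttles and of NADH oxidation were tested, and 7 were lower at an adjusted p-value under 0.05, beside 12.8% of all genes. The median log2 fold change of this list was -0.42, and -0.30 with length and GC offsets. Gpd1, the cytosolic enzyme of the glycerol phosphate shuttle, was a DEG, with 128 and 138 CPM in control mice and 95.4 and 81.8 CPM in PND mice (log2 fold change -0.59, SE 0.09, adjusted p = 0.0072), and it did not pass with the offsets (-0.28, adjusted p = 0.13). Gpd1 fell short of the fold threshold without control mouse 2 (-0.54), without PND mouse 2 (-0.48) and with library totals alone (-0.54), at adjusted p-values under 0.05. With the offsets 3 of the 10 had an adjusted p-value under 0.05, beside 2.82% of all genes. These 3 genes passed in both fits and are named after their values were seen. They were the malate dehydrogenases Mdh1 of the cytosol (-0.45, and -0.58 with the offsets, adjusted p = 0.027) and Mdh2 of mitochondria (-0.51 and -0.40, adjusted p = 0.030), and the aspartate-glutamate carrier Slc25a12 (-0.29 and -0.38, adjusted p = 0.037). Slc25a12 no longer passed, without offsets, when control mouse 2 or PND mouse 2 was left out (adjusted p = 0.094 and 0.074). The list holds 4 further genes of the malate-aspartate shuttle to which these belong, likewise named after their values were seen. Got1, Got2 and Slc25a11 were lower without the offsets (-0.29, -0.37 and -0.39) and did not pass with them (adjusted p = 0.30, 0.26 and 0.22), and Slc25a13 passed in neither fit (adjusted p = 0.25 and 0.32). The call for Got1 was also lost without control mouse 2 or PND mouse 2 (adjusted p = 0.051 and 0.065). Mdh1 had 561 and 627 CPM in control mice and 455 and 415 CPM in PND mice, and Mdh2 had 324 and 348 CPM against 240.0 and 230.4 CPM.

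Of 26 regulators and targets of the sirtuins 25 were tested, with 2 higher DEGs, beside 6.75% of all genes. At an adjusted p-value under 0.05, 4 were higher and 5 were lower, beside 13.1% and 12.8% of all genes. Hif1a, the oxygen-sensitive transcription factor, had 35.4 and 34.3 CPM in control mice and 50.3 and 66.7 CPM in PND mice (log2 fold change 0.75, SE 0.14, adjusted p = 0.012). Prkaa1, a catalytic subunit of the energy sensor AMPK, had 25.9 and 27.4 CPM in control mice and 40.1 and 40.5 CPM in PND mice (log2 fold change 0.60, SE 0.09, adjusted p = 0.0063). Hif1a fell short of the fold threshold without PND mouse 2 (0.53), and Prkaa1 without control mouse 1 (0.55), with DESeq2 (0.57) and, narrowly, without the filter on low counts (0.58), all at adjusted p-values under 0.05. Ppargc1a, which encodes the coactivator PGC-1α deacetylated by Sirt1, was higher without reaching the fold threshold, from 37.2 ± 2.98 to 53.3 ± 1.01 CPM (log2 fold change 0.52, adjusted p = 0.0094). The GC contents of these 3 transcripts lie between 40.2% and 41.7%, within the eighth whose median was 0.59, and none of the 3 passed with the offsets (adjusted p = 0.16 for Hif1a, 0.43 for Prkaa1 and 0.40 for Ppargc1a). Of the proteins that bind Sirt1, its inhibitor Ccar2 was lower (132 ± 1.58 against 110 ± 2.72 CPM, log2 fold change -0.27, adjusted p = 0.023), but was at -0.01 with the offsets (adjusted p = 0.96), and its call was lost without control mouse 1, control mouse 2 or PND mouse 2 (0.058 to 0.10). Its activator Rps19bp1 was at -0.03 (adjusted p = 0.89). Ndufa9, a subunit of respiratory complex I named after its values were seen, passed both without and with the offsets (-0.38, adjusted p = 0.011, and -0.40, adjusted p = 0.038).

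**Figure D5:**
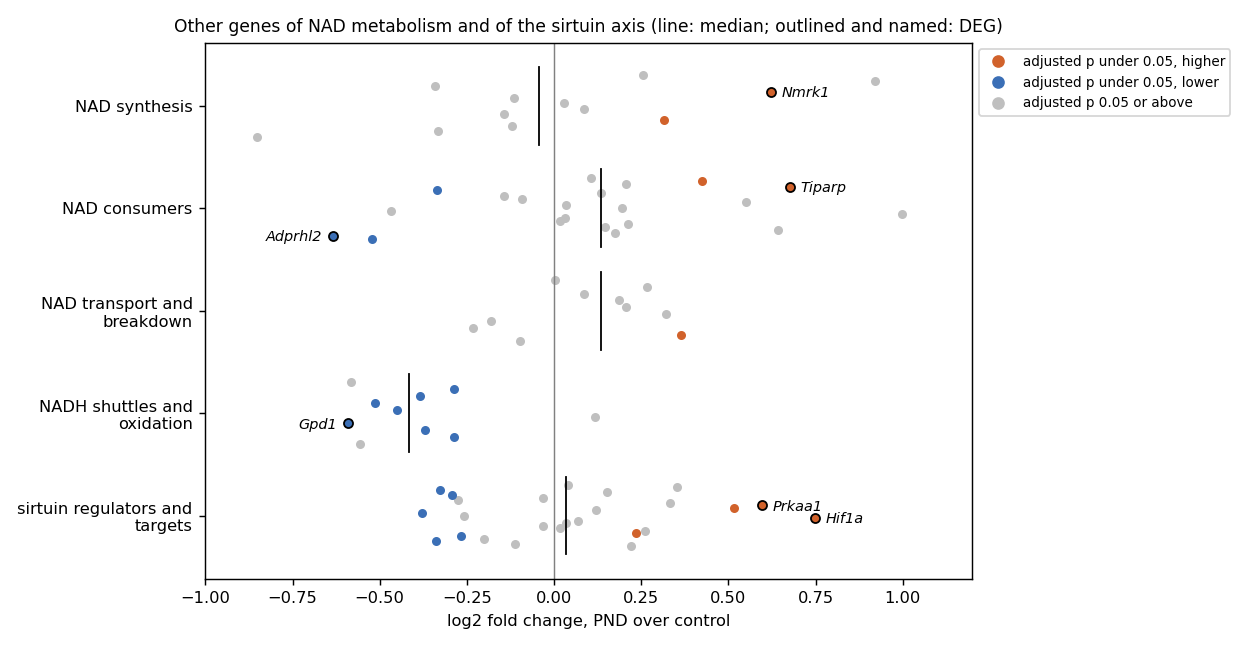
Log2 fold change of PND over control mice for the 78 tested genes of the 5 wider lists, with a point for each gene, colored by the adjusted p-value of edgeR's test, a black line at the median of each list, and DEGs outlined and named. The genes of the NADH shuttles and oxidation lie mostly below 0, with a median of -0.42, while the medians of the other 4 lists lie between -0.04 and 0.14.

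The 10 genes lie on 7 chromosomes of mm10, and all are annotated as protein coding. Sirt1 (ENSMUSG00000020063) lies on chromosome 10 from 63319005 to 63381704 on the minus strand, and Sirt6 (ENSMUSG00000034748) on the same chromosome from 81621785 to 81627797, also on the minus strand. Nampt (ENSMUSG00000020572) lies on chromosome 12 from 32819545 to 32853349 on the plus strand. Sirt4 lies on chromosome 5 from 115478010 to 115484725 and Sirt3 on chromosome 7 from 140863666 to 140882309, both on the minus strand. Sirt2, on the same chromosome as Sirt3, runs from 28766735 to 28788661 on the plus strand. The RefSeq starts used for the Sirt1 and Nampt windows lie inside the annotated genes, whose far ends belong to transcripts that begin further upstream. Sirt6 had windows 1 and 2, and the NRF-1 letters were in window 2 alone.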

How the data were processed

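RNA from the hippocampus of 2 control mice and 2 PND mice was enriched with oligo(dT), primed at random and sequenced as 150 nt paired-end reads. Reads were mapped by the authors to mm10 with HISAT, and they deposited for each gene and mouse the raw counts of reads, with 0 per-sample columns left unmatched here. The submitters' processing notes list HISAT2 2.1.0, Bowtie2 2.2.3, TopHat2 and HTSeq 0.6.0 without their roles, and the counting mode and use of strand are not given in the sources used here. The deposited table also holds the authors' own comparison (mean level, fold change and its log2, p-values, direction and a mark of significance), which was not used.

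The test was edgeR 4.0.16 under R 4.3.3 (filterByExpr at a minimum count of 10, TMM, quasi-likelihood test with Benjamini-Hochberg adjustment over all genes tested). The SE is the size of the log2 fold change over the square root of F. Length and GC trends were fitted for each library with mgcv 1.9.3 (basis size 8) on the longest GENCODE M21 transcript and centred on 0. Alternatives were library totals without TMM, DESeq2 1.42.0, no filter, no fold threshold, the replicate number as a block, these offsets with and without the block, and leaving out each mouse. The procedure was tested on simulated data. The libraries of a group were not copies of each other (chi-square per degree of freedom 12.3 in control and 7.77 in PND mice). The totals of 15763432 to 18573386 counts set the precision for low genes such as Sirt1. Whether each library came from its own animal is known only from the methods, which give 2 mice in each group.

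All 10 members were named, as were, of the wider lists, each DEG and Nmnat1, Nmnat3, Nadk, Nadk2, Naprt, Nadsyn1, Nmrk1, Nnt, Parp2, Cd38, Sarm1, Slc25a51, Ppargc1a, Ccar2 and Rps19bp1, and other genes only where a result turned on them. The members and lists were chosen with earlier results of these data known. Coordinates are those of the deposited table. Marker lists for oligodendrocyte precursors, red blood cells and neutrophils were read with those given in the text. The sums for the precursors were 135 and 146 CPM in control and 123 and 122 CPM in PND mice. They were 8.53 and 5.09 against 11.2 and 7.29 CPM for red blood cells, and 9.52 and 14.8 against 2.07 and 9.54 CPM for neutrophils. By edgeR, Ltf of neutrophils was a lower DEG (-1.63, adjusted p = 0.039) and Cspg4 of the precursors was lower (-0.44, adjusted p = 0.025). Neither passed with the offsets (adjusted p = 0.11 and 0.65).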

Additional observations from a re-analysis of the deposited data

How the results depend on the processing

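Over 11 alternative analyses, Sirt1 was higher in PND mice in every one and kept an adjusted p-value under 0.05 in 10. Its log2 fold change ran from 0.62 to 0.98. Libraries scaled by totals only gave 1601 DEGs, of which 1377 (86.0%) were higher, against 1158 of 1544 with TMM. Without the fold threshold, 4450 genes (2249 higher, 2201 lower), 3 of the 10 members and 24 genes of the wider lists passed. With length and GC offsets there were 184 DEGs (112 higher, 72 lower), 1 of them in the wider lists, and the median was 0.0023 over the 10 members and 0.019 over the sirtuins. Direction was then opposite for Sirt2 (0.081), Sirt5 (-0.014), Sirt7 (0.019), Nampt (-0.073), Parp1 (0.046), Nmnat3 (0.077), Nadk (0.051), Nadsyn1 (0.054), Slc25a51 (-0.022) and Rps19bp1 (0.23).

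The labels number the mice 1 and 2 in each group, but nothing ties equal numbers to each other, and the correlation of their deviations from the group means was 0.22. With the replicate number as a block there were 1716 DEGs (1289 higher, 427 lower), Sirt1 stayed at 0.92, and Sirt7 and Cd38 passed the test (adjusted p = 0.044 and 0.035), Cd38 as 1 of 8 DEGs of the wider lists. With the block and the offsets there were 438 DEGs (319 higher, 119 lower), 1 in the wider lists, with medians of 0.0050 and 0.022, Sirt3, Sirt4, Hif1a and Gpd1 passed (adjusted p = 0.041, 0.019, 0.047 and 0.046), all 4 below the fold threshold, and Sirt2 (0.080), Sirt5 (-0.012), Sirt7 (0.022), Nampt (-0.074), Parp1 (0.046), Nmnat3 (0.074), Nadk (0.049), Nadsyn1 (0.055), Slc25a51 (-0.022) and Rps19bp1 (0.23) were opposite to the fit without either.

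When the mean of the trend was also removed, a choice made after seeing the data, there were 186 DEGs (68 higher, 118 lower), 0 of the members (Sirt1 had an adjusted p-value of 0.061) and 2 genes of the wider lists by edgeR, the median of the sirtuins was -0.051, and Sirt2 (0.013), Sirt5 (-0.084), Nampt (-0.14), Nmnat3 (0.0057), Nadk2 (-0.0047), Slc25a51 (-0.092) and Rps19bp1 (0.16) changed direction. Slc25a51 was at -0.018 with DESeq2 and -0.0077 without the filter, and Rps19bp1 at 0.014 with totals only. Leaving out each mouse gave 1008 (without control mouse 2) to 1926 DEGs, medians of -0.14 to -0.065 over the 10 members and -0.19 to -0.055 over the sirtuins (the highest of each without PND mouse 2), and log2 fold changes of -0.085 to 0.14 for Sirt5, -0.049 to 0.096 for Nmnat1, -0.39 to 0.092 for Nmnat3, -0.17 to 0.38 for Naprt, -0.025 to 0.021 for Slc25a51 and -0.18 to 0.098 for Rps19bp1. The cause of these changes was not tested. By longest transcript, 6 of the 10 genes kept their rank of level. The calls for Nmrk1, Nadk2 and Sarm1 were lost in 8 or 9 of the 11 alternatives each, and those for Mdh1, Mdh2 and Ndufa9 in none. Depth limits the low genes most. Sirt1 rested on 172 to 340 reads in a mouse.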
